A study of Mus musculus with 6 samples.

Results

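The Hippo pathway and its YAP target genes were followed as 10 genes of neural stem cells of the mouse in culture, which renew themselves and give rise to neurons and glia. They were Yap1, Wwtr1, Tead1, Tead2, Lats1, Lats2, Amotl2, Ctgf, Cyr61 and Ajuba, taken by symbol from a deposited table of 54884 entries, in which each symbol was found. Of these 10, 9 reached the mean of 1 FPKM over all libraries that was required for testing, as did 13702 entries in all. FPKM stands for fragments per kilobase of transcript scaled to the mapped fragments of the library, so levels can be compared between genes. There were 2 groups of 3 libraries: cells given a lentivirus with circHIPK2 siRNA, and cells given a lentivirus with circCon siRNA, here called the control. circHIPK2 is an RNA circle made from Hipk2 transcripts. In both groups the cells came from the hippocampus of C57BL/6 embryos at day 14 and had been passaged between the third and the eighth time. The control cells thus also carried a virus and an siRNA. Nothing says that the libraries of a group came from separate cultures, so p-values reflect library-to-library spread alone, whether technical or biological.

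In the Hippo pathway a cascade of protein kinases ends in the LATS kinases, which phosphorylate the coactivators YAP and TAZ. Phosphorylated YAP and TAZ are held in the cytoplasm by 14-3-3 proteins or degraded, and the unphosphorylated forms enter the nucleus and bind TEAD transcription factors. TEAD complexes switch on growth and matrix genes such as Ctgf and Cyr61, and also Lats2 and Amotl2, whose products act back on YAP as inhibitors. In the embryonic brain YAP and the TEADs are known for keeping neural progenitors dividing. mRNA levels do not report where YAP is located or whether it is phosphorylated.

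TEAD proteins recognise the letters GGAATG, which read CATTCC on the other strand. RefSeq promoter windows (build GRCm38.p6, from 250 bases before the start base up to 50 bases from it) were on hand for 8 of the 10 genes, and not for Ctgf and Tead1. A motif was found for 6 of the 8: Yap1, Wwtr1, Lats2, Amotl2, Cyr61 and Ajuba. Of all 27025 genes with a window, 16.6% held it on either strand in at least 1 window, and of all 32851 windows 14.7% did. Wwtr1 and Lats2 have 2 windows each. Those of Wwtr1 overlap and hold the same copy of the motif. Of Lats2, the window shown held the motif and the other did not. Windows without the motif were left out. The windows shown are of 4 genes that are TEAD targets or bind LATS kinases. They run 5′ to 3′ on the strand of the gene, with the motif in capitals.
Cyr61 (chr3:145649936-145650235, - strand): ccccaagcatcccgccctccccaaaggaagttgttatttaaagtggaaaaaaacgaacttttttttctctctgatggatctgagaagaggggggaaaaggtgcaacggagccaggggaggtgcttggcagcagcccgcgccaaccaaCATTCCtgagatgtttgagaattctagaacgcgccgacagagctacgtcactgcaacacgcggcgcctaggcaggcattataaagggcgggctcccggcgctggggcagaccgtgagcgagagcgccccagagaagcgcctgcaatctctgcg
Ajuba (chr14:54577612-54577911, - strand): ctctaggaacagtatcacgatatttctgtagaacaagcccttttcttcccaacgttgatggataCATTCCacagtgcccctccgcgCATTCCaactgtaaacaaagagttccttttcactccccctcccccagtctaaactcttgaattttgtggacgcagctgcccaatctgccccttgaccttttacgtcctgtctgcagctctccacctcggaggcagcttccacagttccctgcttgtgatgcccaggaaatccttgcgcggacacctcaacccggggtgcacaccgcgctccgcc
Lats2 (chr14:57746074-57746373, - strand): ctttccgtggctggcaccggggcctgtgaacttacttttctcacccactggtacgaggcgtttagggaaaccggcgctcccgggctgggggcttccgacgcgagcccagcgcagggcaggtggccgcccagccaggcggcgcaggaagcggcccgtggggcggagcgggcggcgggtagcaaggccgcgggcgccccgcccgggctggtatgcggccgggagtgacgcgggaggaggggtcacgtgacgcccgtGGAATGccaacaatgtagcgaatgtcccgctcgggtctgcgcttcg
Amotl2 (chr9:102717554-102717853, + strand): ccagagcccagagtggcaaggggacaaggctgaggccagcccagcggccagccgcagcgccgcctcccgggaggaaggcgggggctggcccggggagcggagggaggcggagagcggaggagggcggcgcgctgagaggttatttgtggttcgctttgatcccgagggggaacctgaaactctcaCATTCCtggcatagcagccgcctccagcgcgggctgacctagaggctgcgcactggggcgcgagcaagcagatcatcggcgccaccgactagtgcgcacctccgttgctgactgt
Counting the start base as 0, the motif began at base -103 in Cyr61, at -186 and -164 in Ajuba, at 4 in Lats2 and at -65 in Amotl2. Ajuba held 2 copies, and 1.36% of all windows held at least 2. A match is a description of the letters, not evidence of binding. The deposited values were made on the mm9 build, so no coordinate of the reads is given.

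Of 10 neural stem cell markers, 9 reached 1 FPKM, and 0 were called (limma, BH-adjusted). Sox2 ranged from 91.4 to 118 FPKM in siRNA libraries and from 82.2 to 116 FPKM in controls, and Nes from 63.3 to 77.0 FPKM in siRNA libraries and from 64.1 to 85.3 FPKM in controls. A pair of these markers lay lower in every siRNA library: Hes5, a Notch target, had 10.1 ± 1.05 FPKM with the siRNA and 17.2 ± 1.89 FPKM in controls (limma adjusted p = 0.0666), and Fabp7, a fatty acid binding protein of radial glia, 755 ± 148 FPKM with the siRNA and 1206 ± 307 FPKM in controls (limma adjusted p = 0.211; SD, n = 3 each). Sox1 lay higher in every siRNA library, at 6.77 ± 0.439 FPKM with the siRNA and 6.19 ± 0.117 FPKM in controls (limma adjusted p = 0.535). Of all entries tested, 22.1% lay below the controls in every siRNA library and 2.65% above. Of the 9 markers tested, 5 had a log2 fold change above 0. Markers of astrocytes and of the oligodendrocyte lineage were also present. The 5 astrocyte markers summed to between 193 and 434 FPKM with the siRNA and between 224 and 409 FPKM in controls, and the 6 oligodendrocyte lineage markers to between 64.3 and 111 FPKM with the siRNA and between 96.5 and 124 FPKM in controls. Among the astrocyte markers, Gfap, at 186 ± 91.6 FPKM with the siRNA and 109 ± 62.1 FPKM in controls, and Aqp4 had higher siRNA means. Aldh1l1, S100b and Gja1 had lower ones, and the groups of each astrocyte marker overlapped. Markers of fibroblasts and mural cells, in which Ctgf and Cyr61 are typically abundant, were near 0: their 7 genes summed to between 0.330 and 0.453 FPKM with the siRNA and between 0.348 and 0.575 FPKM in the controls. The 6 endothelial markers summed to at most 0.414 FPKM with the siRNA and at most 0.473 FPKM in controls. Estimated depth ran from 18400000 to 20980000 fragments in siRNA libraries and from 19880000 to 21900000 in controls. In siRNA libraries 9 entries that lie at the ribosomal RNA locus or move with it took 11.5%, 3.24% and 19.9% of all FPKM, against 0.580%, 0.426% and 0.321% in controls. Transcripts of 10 liver genes summed to between 2.10 and 2.21 FPKM with the siRNA and between 39.9 and 64.8 FPKM in controls. The 7 neuron markers summed to between 93.4 and 105 FPKM with the siRNA and between 120 and 130 FPKM in controls, most of it Map2, at 89.0 ± 4.47 FPKM with the siRNA and 109 ± 5.12 FPKM in controls (SD, n = 3 each). Tubb3 and Snap25 were also lower in every siRNA library, Dcx overlapped, and Rbfox3, Syt1 and Stmn2, all below 1 FPKM on average, had higher siRNA means. The part of these differences in the results was not tested. In bulk RNA, fewer cells that express a gene and less of its RNA per cell cannot be told apart.

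The comparison asks which transcripts differ between cells given the circHIPK2 siRNA and the controls. The level of circHIPK2 itself was not examined here, so its silencing was not checked. Among the 9 genes tested, 0 rose and 0 fell at an adjusted p below 0.05 (limma on log2(FPKM + 1), two-sided, with Benjamini-Hochberg or BH adjustment over all 13702 entries). Of all entries tested 0.255% were called, 0.117% as higher and 0.139% as lower. Of the 16 called higher, 8 were among the 9 ribosomal locus entries, and of the 19 called lower, 10 were the liver genes. At an unadjusted p below 0.05, Tead1 was higher and Amotl2 lower, 2 of 9, against 17.3% of all entries, of which 1.83% were higher and 15.5% lower. Of the 9 log2 fold changes, 7 were above 0, against 22.9% of all entries. Their median was 0.18, and the median of all entries was -0.12. As distances from that shift, the 9 values were 0.50 for Tead1, 0.44 for Cyr61, 0.41 for Tead2, 0.37 for Ajuba, 0.30 for Wwtr1, 0.21 for Yap1, 0.19 for Lats1, -0.09 for Lats2 and -0.33 for Amotl2. In 3 of the 9 genes the siRNA and control libraries did not overlap, against 24.7% of all entries: Tead1 and Tead2 lay above the controls, as 2.65% of entries did, and Amotl2 below, as 22.1% did. An exact two-sided permutation test of 3 against 3 libraries cannot give a p below 0.1.

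**Figure D1:**
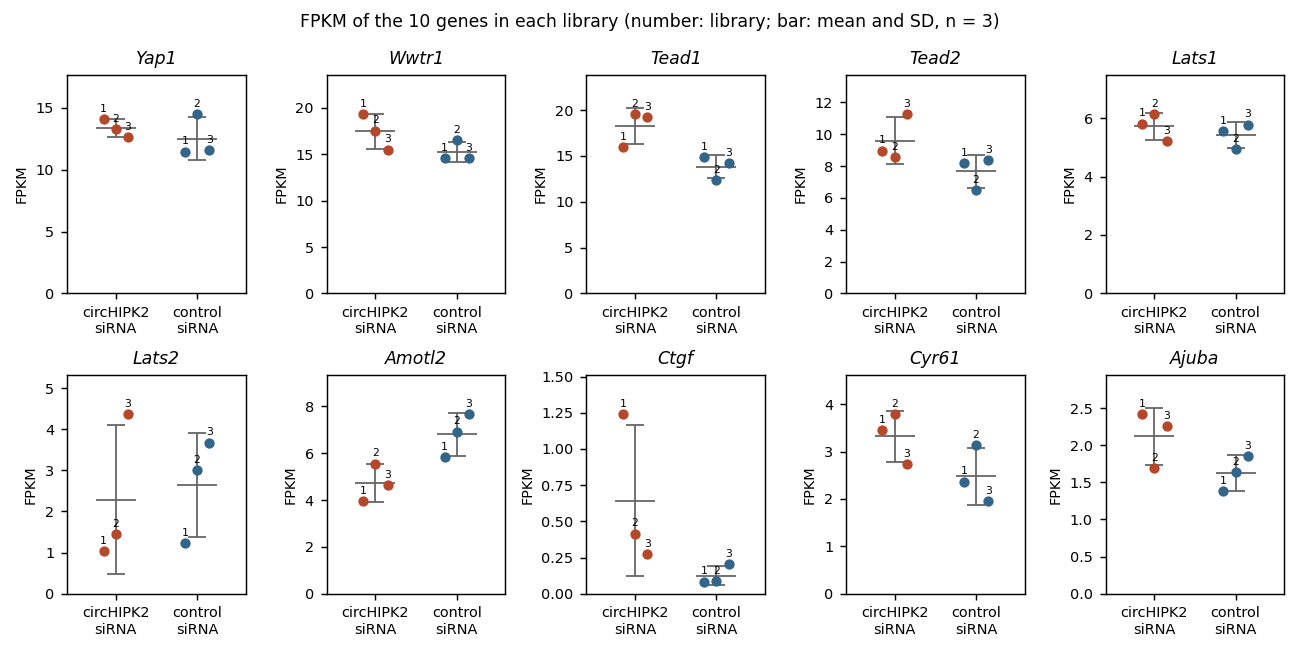
FPKM (vertical axis, from 0) of the 10 Hippo pathway and YAP target genes in the 3 circHIPK2 siRNA libraries (left, red) and the 3 control siRNA libraries (right, blue). Numbers give the library and bars the mean and SD. Tead1, Tead2 and Ctgf (too low to test) lie higher with the siRNA and Amotl2 lower, without overlap, and Lats2 is spread widely within both groups.

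The coactivators were among the 3 most abundant of the 10 genes in both groups, beside Tead1. Wwtr1, which encodes TAZ, had 19.3, 17.6 and 15.5 FPKM in siRNA libraries 1 to 3, against 14.6, 16.5 and 14.6 FPKM in control libraries 1 to 3. The groups overlapped, since siRNA library 3 lay below control library 2. This gave a log2 fold change of 0.18 (SE 0.11; limma adjusted p = 0.398), which did not pass. Yap1, which encodes the coactivator YAP, had 14.1, 13.3 and 12.6 FPKM in siRNA libraries 1 to 3, against 11.5, 14.5 and 11.6 FPKM in control libraries 1 to 3. Control library 2 was above every siRNA library, so the groups overlapped here too (log2 fold change 0.09, SE 0.11; limma adjusted p = 0.673). The interval of 1 SE on either side of the Yap1 value spans 0. Within a library, Wwtr1 was at 1.37, 1.32 and 1.23 times the Yap1 level with the siRNA and at 1.27, 1.14 and 1.26 times in controls. TAZ mRNA was thus the more abundant in all 6 libraries, and this ratio, which does not depend on scaling, overlapped between groups. The summed level of Yap1 and Wwtr1 was 30.8 ± 2.65 FPKM with the siRNA and 27.8 ± 2.85 FPKM in controls (SD, n = 3 each).

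The TEAD transcription factors had higher mean levels with the siRNA, none of them past the threshold. Tead1 had 16.0, 19.6 and 19.2 FPKM in siRNA libraries 1 to 3, against 14.8, 12.4 and 14.2 FPKM in control libraries 1 to 3. Every siRNA library lay above every control library, though siRNA library 1 exceeded control library 1 by little. Its means were 18.3 ± 1.99 FPKM with the siRNA and 13.8 ± 1.26 FPKM in controls (SD, n = 3 each), a ratio of 1.32. On the log2 scale the change of 0.38 (SE 0.11) missed the threshold (limma adjusted p = 0.195). Of all entries, 1.57% had a larger value.

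Tead2, the family member known for its expression in neural progenitors, had 8.96, 8.58 and 11.3 FPKM in siRNA libraries 1 to 3, against 8.17, 6.50 and 8.37 FPKM in control libraries 1 to 3. The groups were adjacent without overlap, with siRNA library 2 just above control library 3. The log2 fold change was 0.29 (SE 0.13; limma adjusted p = 0.310) and was 0.18 without siRNA library 3 and 0.19 without control library 2. For Tead1 and Tead2 the exact two-sided permutation p was 0.1, the smallest possible. Of the TEAD genes outside the 10, Tead3 had 6.69, 6.97 and 5.47 FPKM in siRNA libraries 1 to 3, against 4.50, 4.22 and 5.92 FPKM in control libraries 1 to 3. Its groups overlapped through siRNA library 3 and control library 3, and its log2 fold change of 0.33 (SE 0.14) missed the threshold (limma adjusted p = 0.275) and was 0.56 with the ribosomal locus entries removed. Tead4 was at 0.200 ± 0.0505 FPKM with the siRNA and at 0.138 ± 0.0904 FPKM in controls, too low to test.

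Added together, the 4 TEAD genes reached 31.9, 35.3 and 36.1 FPKM in siRNA libraries 1 to 3, against 27.6, 23.3 and 28.6 FPKM in control libraries 1 to 3. The sums did not overlap, and their means were in a ratio of 1.30. The shares within the family overlapped between groups: Tead1 supplied 52.9 ± 2.69% of TEAD FPKM with the siRNA and 52.2 ± 2.28% in controls, and Tead2 27.9 ± 3.45% with the siRNA and 28.9 ± 0.960% in controls (SD, n = 3 each). These sums were chosen with the values known and are a description.

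The LATS kinases, which phosphorylate YAP and TAZ, did not pass. Lats1 had 5.81, 6.14 and 5.22 FPKM in siRNA libraries 1 to 3, against 5.56, 4.94 and 5.78 FPKM in control libraries 1 to 3. Its libraries were interleaved between groups, with a log2 fold change of 0.07 (SE 0.10; limma adjusted p = 0.747). Lats2, a kinase gene that is also a YAP target, had 1.04, 1.46 and 4.36 FPKM in siRNA libraries 1 to 3, against 1.23, 3.02 and 3.68 FPKM in control libraries 1 to 3. A pair of siRNA libraries and control library 1 were low, the other controls were high, and siRNA library 3 was above every control. The within-group SD was 79.1% of the mean with the siRNA and 47.8% in controls, whereas for Lats1 it was 8.11% with the siRNA and 7.98% in controls. The log2 fold change of Lats2 was -0.21 (SE 0.38; limma adjusted p = 0.781), and it ran from -0.63 without siRNA library 3 to 0.06 without siRNA library 1, and was also above 0 without control library 3, so no direction can be given. Lats2 has 9 annotated transcripts from 219 to 5191 nt in GENCODE M21, and gene-level FPKM does not show which of them were read. The ratio of Lats2 to Lats1 was 0.179, 0.237 and 0.836 in siRNA libraries and 0.222, 0.610 and 0.637 in controls. The lowest Lats2 level, 1.04 FPKM in siRNA library 1, stood for about 99.6 fragments over the longest transcript.

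The scaffold and adaptor genes differed in direction. Amotl2, which encodes an angiomotin that binds YAP and holds it out of the nucleus and is itself a YAP target, had 3.95, 5.56 and 4.65 FPKM in siRNA libraries 1 to 3, against 5.84, 6.93 and 7.66 FPKM in control libraries 1 to 3. All siRNA libraries lay below all controls, with siRNA library 2 close to control library 1. The means were 4.72 ± 0.805 FPKM with the siRNA and 6.81 ± 0.917 FPKM in controls (SD, n = 3 each), a ratio of 0.694. The log2 fold change of Amotl2 was -0.45 (SE 0.14), which missed the threshold (limma adjusted p = 0.195; exact permutation p = 0.1, the smallest possible). Of all entries, 4.25% had a lower value. Set against Yap1 in the same library, Amotl2 stood at 0.280, 0.418 and 0.368 with the siRNA and at 0.509, 0.478 and 0.663 in controls. These ratios did not overlap between groups. How often ratios of other genes do so was not counted, and mean Yap1 was itself higher with the siRNA, at 1.07 times the control mean.

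Ajuba, a LIM protein that binds LATS kinases and restrains them, had 2.42, 1.69 and 2.26 FPKM in siRNA libraries 1 to 3, against 1.38, 1.64 and 1.85 FPKM in control libraries 1 to 3. siRNA libraries 1 and 3 were above the controls and siRNA library 2 was among them. Ajuba had a log2 fold change of 0.25 (SE 0.13; limma adjusted p = 0.361). Limd1, which encodes a LIM protein of the same family, was named after its values were seen and stood the other way, at 17.1 ± 1.47 FPKM with the siRNA and 22.9 ± 1.41 FPKM in controls (SD, n = 3 each). Its siRNA libraries lay below all controls, as those of 22.1% of entries did. The log2 fold change of Limd1, -0.40 (SE 0.10), missed the threshold (limma adjusted p = 0.159) and was -0.21 with the ribosomal locus entries removed. Wtip, a gene of the wider list described below, was also lower in every siRNA library (log2 fold change -0.33, SE 0.14; limma adjusted p = 0.275).

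The matrix-protein targets Cyr61 and Ctgf, renamed Ccn1 and Ccn2 in later annotations, were the secreted YAP targets followed. Cyr61 had 3.45, 3.79 and 2.73 FPKM in siRNA libraries 1 to 3, against 2.36, 3.13 and 1.95 FPKM in control libraries 1 to 3. siRNA libraries 1 and 2 were above every control, and the groups overlapped because siRNA library 3 lay below control library 2. The log2 fold change of Cyr61 was 0.32 (SE 0.15; limma adjusted p = 0.322). Set against Yap1 in the same library, Cyr61 stood at 0.245, 0.285 and 0.216 with the siRNA and at 0.206, 0.216 and 0.168 in controls, the lowest siRNA ratio and the highest control ratio being nearly equal.

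Ctgf was the least abundant of the 10 genes. It had 1.24, 0.415 and 0.276 FPKM in siRNA libraries 1 to 3, against 0.0830, 0.0883 and 0.205 FPKM in control libraries 1 to 3. All siRNA libraries lay above all controls, with siRNA library 1 far above the other two (exact two-sided permutation p = 0.1, the smallest possible). The means of 0.643 ± 0.521 FPKM with the siRNA and 0.125 ± 0.0687 FPKM in controls (SD, n = 3 each) were in a ratio of 5.13, which was 2.75 without siRNA library 1. At the estimated depth these values stand for about 56.8, 21.7 and 13.7 fragments with the siRNA and about 4.11, 4.82 and 10.9 in controls over the longest annotated transcript of 2490 nt, so the control level rests on a few fragments. Its mean lay below the level required for testing, so the 2.65% of tested entries that lay above the controls is no measure for Ctgf. With that requirement dropped, its log2 fold change was 0.50 (SE 0.22) and missed the threshold (limma adjusted p = 0.445).

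By level in siRNA libraries the order was Tead1, Wwtr1, Yap1, Tead2, Lats1, Amotl2, Cyr61, Lats2, Ajuba and Ctgf. In the controls it was Wwtr1, Tead1, Yap1, Tead2, Amotl2, Lats1, Lats2, Cyr61, Ajuba and Ctgf. The libraries of neighbours overlapped between Tead1 and Wwtr1, Lats1 and Amotl2, Cyr61 and Lats2, and Lats2 and Ajuba with the siRNA. In the controls they overlapped between Wwtr1 and Tead1, Tead1 and Yap1, Tead2 and Amotl2, and Lats2 and Cyr61. Other neighbours were apart in every library. Amotl2 and Lats1 stood in opposite order in the groups: Amotl2 averaged 4.72 FPKM and Lats1 5.73 FPKM with the siRNA, against 6.81 and 5.42 FPKM in the controls.

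The fold changes moved with the scaling of the libraries, as did the median of all entries. Median-of-ratios scaling brought the median of all entries to -0.01, with log2 fold changes of 0.49 for Tead1, 0.41 for Cyr61, 0.21 for Yap1 and -0.35 for Amotl2. With the 9 ribosomal locus entries removed and the columns rescaled, the median of all entries was 0.06, with 0.59 for Tead1, 0.55 for Cyr61, 0.30 for Yap1 and -0.30 for Amotl2. The rescaled values are larger, so the added 1 weighs less. In both, 7 of the 9 genes lay above the median of all entries, as on the values as deposited, and 0 of 9 were called (limma). With median-of-ratios scaling 4 of the 9 were higher and 1 lower at an unadjusted p below 0.05, where 5.79% and 7.82% of all entries were. With the ribosomal entries removed, 7 were higher and 0 lower, where 8.82% and 2.87% of all entries were.

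**Figure D2:**
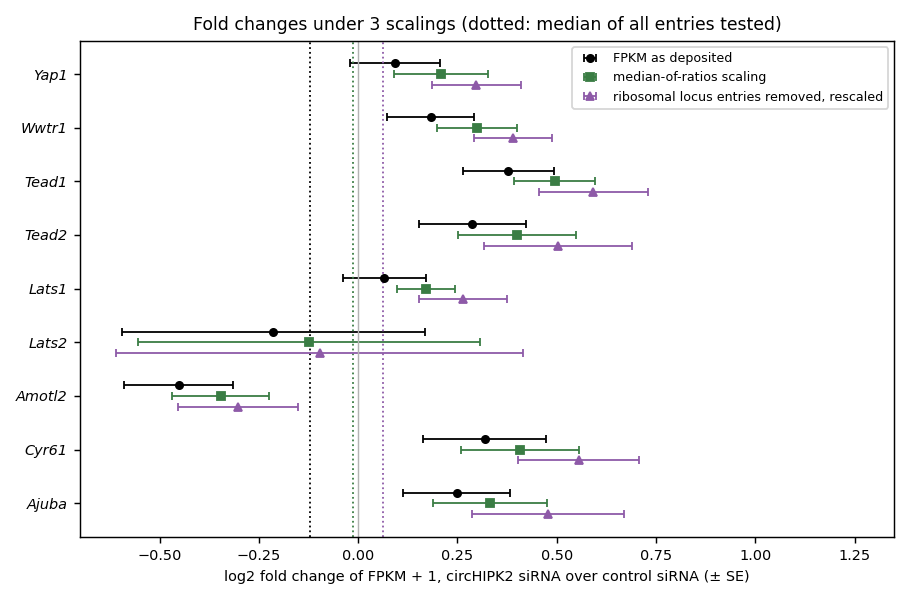
Log2 fold changes (horizontal axis, circHIPK2 siRNA over control siRNA, with SE bars) of the 9 genes tested on FPKM as deposited (black), with median-of-ratios scaling (green) and with 9 ribosomal locus entries removed (purple). Dotted lines mark the median of all entries in the same colours; Amotl2 stays left of it and Tead1, Tead2 and Cyr61 stay right of it under each of these scalings.

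With each library left out in turn, 8 of the 9 genes kept the direction of their fold change. Tead1 ran from 0.31 to 0.47, Tead2 from 0.18 to 0.36, Amotl2 from -0.55 to -0.35 and Cyr61 from 0.21 to 0.45. Lats2 was the exception.

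**Figure D3:**
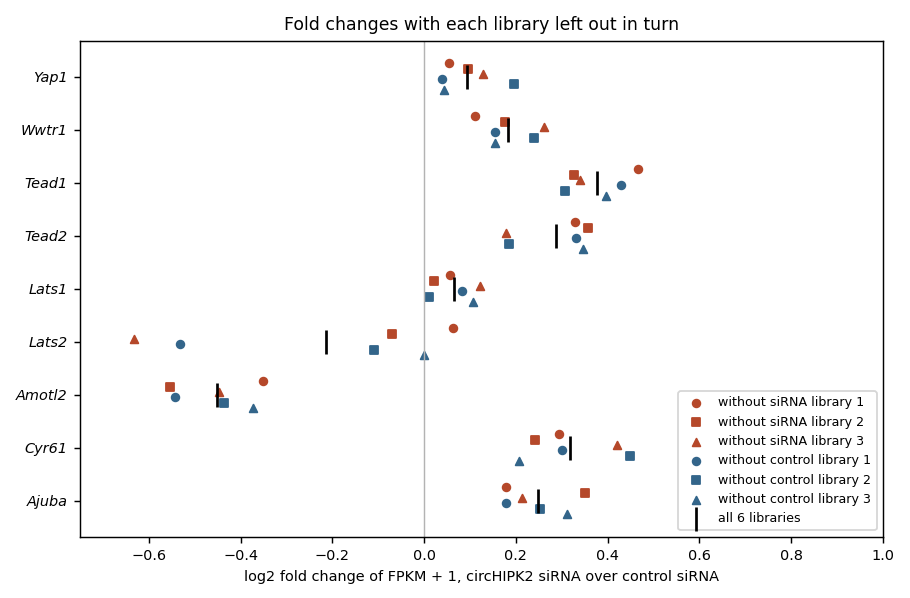
Log2 fold changes (horizontal axis, circHIPK2 siRNA over control siRNA) of the 9 genes tested, with each siRNA library (red) or control library (blue) left out and with all 6 libraries (black bar). The Lats2 values run from -0.63 to 0.06 across 0, and each of the other genes keeps its side of 0.

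A wider list of 40 Hippo genes covered the upstream kinases, their activators, the remaining TEADs and junction proteins. Of 35 tested, 0 rose and 0 fell (limma, BH-adjusted). At an unadjusted p below 0.05, Tead3 was higher and Limd1, Map4k4 and Wtip were lower, 1 and 3 of 35. Among all entries, 1.83% were higher and 15.5% lower at that cutoff. The list median was -0.08, against -0.12 over all entries, and 21 of 35 members lay above the median of all entries. In the core cascade, Stk3 and Stk4, which encode the kinases that activate LATS, had 4.47 ± 0.232 and 8.36 ± 0.658 FPKM with the siRNA and 5.25 ± 0.397 and 8.93 ± 0.743 FPKM in controls. Their scaffold gene Sav1 had 12.3 ± 0.531 FPKM with the siRNA and 13.0 ± 0.235 FPKM in controls. The LATS cofactor genes Mob1a and Mob1b had 12.9 ± 0.521 and 10.0 ± 0.509 FPKM with the siRNA, and 14.5 ± 0.540 and 9.24 ± 1.59 FPKM in controls. Mob1a and Stk3 were lower in all siRNA libraries without overlap, as 22.1% of entries were.

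Nf2, which encodes the upstream activator merlin, had 24.1, 31.8 and 18.7 FPKM in siRNA libraries 1 to 3, against 32.2, 32.9 and 30.5 FPKM in control libraries 1 to 3. siRNA library 2 lay among the controls and siRNA library 3 far below them (log2 fold change -0.38, SE 0.17; limma adjusted p = 0.297). Its value was -0.20 without siRNA library 3, and on all 6 libraries -0.22 with quantile normalization and -0.18 with the ribosomal locus entries removed. Among the 4 most abundant members, Map4k4, a kinase that acts beside the STK kinases on LATS, had 61.4 ± 4.94 FPKM with the siRNA and 74.4 ± 3.26 FPKM in controls, without overlap (log2 fold change -0.28, SE 0.10; limma adjusted p = 0.235). Scaling moved that value to -0.15 with median-of-ratios scaling, -0.09 with quantile normalization and -0.07 with the ribosomal locus entries removed. Vgll4, which encodes a competitor of YAP for TEADs, had 60.8 ± 3.66 FPKM with the siRNA and 59.4 ± 2.28 FPKM in controls. The 14-3-3 genes Ywhae and Ywhab had 423 ± 55.7 and 67.2 ± 6.33 FPKM with the siRNA, and 505 ± 28.5 and 74.2 ± 4.94 FPKM in controls (SD, n = 3 each).

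Another 18 genes are known as YAP targets in many cell types, mostly from human cells. Of 13 tested, 0 rose and 0 fell (limma, BH-adjusted), and 0 had an unadjusted p below 0.05. Their median log2 fold change was 0.02, against -0.12 over all entries, and 12 of 13 lay above the median of all entries. Igfbp3, a binding protein of insulin-like growth factors, was the most abundant at 155 ± 15.3 FPKM with the siRNA and 137 ± 7.76 FPKM in controls (log2 fold change 0.18, SE 0.11; limma adjusted p = 0.422). That value was 0.11 without siRNA library 3, 0.30 with median-of-ratios scaling and 0.38 both with quantile normalization and with the ribosomal locus entries removed. F3, the tissue factor of coagulation, had 18.2 ± 4.17 FPKM with the siRNA and 19.2 ± 3.49 FPKM in controls. Asap1, a regulator of ARF GTPases, had 11.6 ± 2.87 FPKM with the siRNA and 14.0 ± 1.04 FPKM in controls. Fjx1, a homologue of fly four-jointed, had 12.0 ± 0.779 FPKM with the siRNA and 12.5 ± 0.301 FPKM in controls (SD, n = 3 each). Ankrd1, a muscle ankyrin-repeat gene often used as a YAP readout, was listed at 0 in the 3 siRNA libraries and in 2 control libraries, and at 0.0228 FPKM in control library 2.

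Cyr61 and Ctgf also respond to the serum response factor SRF and its coactivators MRTF, so 20 targets of these were examined. Of 15 tested, 1 rose and 0 fell (limma, BH-adjusted), and 3 were higher at an unadjusted p below 0.05: Fos, Egr1 and Junb. Among all entries tested, 0.117% were called higher, and 1.83% were higher at an unadjusted p below 0.05. Fos, Egr1 and Junb lay above the controls in every siRNA library, as 2.65% of entries did. Actb and Tpm1 lay below the controls in every siRNA library, as 22.1% of entries did. The list median was 0.02 and 11 of 15 lay above the median of all entries. Fos, an immediate early transcription factor, had 28.7, 31.9 and 31.4 FPKM in siRNA libraries 1 to 3, against 16.5, 17.6 and 16.4 FPKM in control libraries 1 to 3, with a log2 fold change of 0.83 (SE 0.09; limma adjusted p = 0.0134). Its groups were well apart, and it was no longer called without control library 3 (limma adjusted p = 0.0585) and without siRNA library 3 (limma adjusted p = 0.0608). Egr1, likewise an immediate early factor, had 72.2 ± 4.13 FPKM with the siRNA and 50.8 ± 5.74 FPKM in controls and missed the threshold (limma adjusted p = 0.137). The actin genes Actg1 and Actb and the actin-binding Tagln2, the most abundant members, had 730 ± 99.6, 536 ± 28.4 and 72.3 ± 10.3 FPKM with the siRNA, and 790 ± 142, 588 ± 23.1 and 75.9 ± 8.03 FPKM in controls (SD, n = 3 each).

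**Figure D4:**
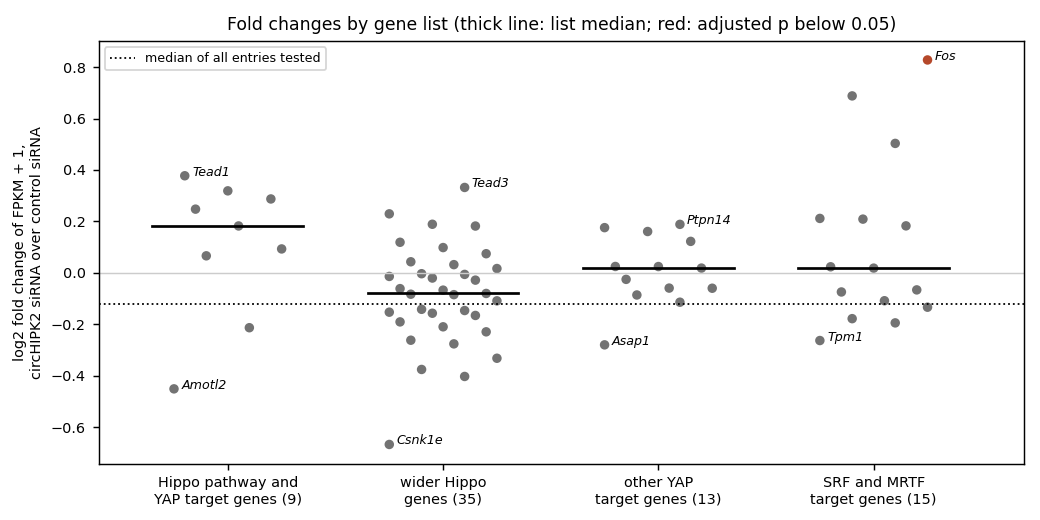
Log2 fold changes (vertical axis, circHIPK2 siRNA over control siRNA) of the tested members of 4 gene lists, with list medians (thick lines), the median of all entries tested (dotted) and the number tested in brackets. Fos, in red, is the member with an adjusted p below 0.05; the Hippo pathway and YAP target genes run from -0.45 for Amotl2 to 0.38 for Tead1.

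The entries whose profile over the 6 libraries lay nearest to those of 3 members were sought by root mean square distance of log2(FPKM + 1) values, each centred on its own mean. Nearest to Yap1 were Hist2h3c1 at 0.0341, Txnip at 0.0352 and Cpeb2 at 0.0381, where the median distance over all entries was 0.214. Nearest to Ctgf were Bend3 at 0.0840, Lrrc61 at 0.106 and Iqce at 0.138, against a median of 0.421. Nearest to Cyr61 were Cav2 at 0.0601, Appl2 at 0.0618 and Itga7 at 0.0679, against a median of 0.306. The profiles of the members themselves deviated from their means by a root mean square of 0.121 for Yap1, 0.358 for Ctgf and 0.238 for Cyr61. A flat profile such as that of Yap1 lies near any other flat one. The names are the smallest of many distances and a description of 6 libraries.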

How the data were processed

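Poly(A)-selected, strand-marked (dUTP) RNA libraries with molecular identifiers were sequenced from both ends, per the labels' protocols. The authors deposited FPKM values per gene symbol and library. HISAT, StringTie and edgeR with the mm9 build are named per the submitters' processing notes; not given in the sources used here are the role and version of each tool, the annotation, and the use of strand and of the identifiers. Without a stated use of strand, antisense and overlapping genes cannot be told apart. Spreadsheet dates replaced 26 symbols.

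Values were used as deposited, as log2(FPKM + 1), where the mean over 6 libraries reached 1 FPKM, so fold changes of weakly expressed genes are understated. limma 3.58.1 (R 4.3.3) tested the siRNA group against the control, two-sided and with a mean-variance trend. The p-values were adjusted by Benjamini-Hochberg over all entries tested (threshold 0.05). These steps were also run on simulated data with independent noise around the mean of each entry. The simulated data held no shift between groups like that of the ribosomal share. Folds are ratios of mean FPKM. Depth was estimated from the steps of low FPKM of genes that have 1 transcript in GENCODE M21, with a length from 500 nt, an annotation of a later build; between 38.0% and 42.1% of low values lay within 0.05 of a whole fragment count, against 10% by chance, so fragment numbers are rough. Promoters came from RefSeq GRCm38.p6.

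The members, lists, rules and tests were chosen with earlier results of these data known. Named were all 10 members, Stk3, Stk4, Sav1, Mob1a, Mob1b, Nf2, Tead3 and Tead4, and of each wider list the called entries and the 4 of highest mean FPKM; genes outside this rule were chosen after their values were seen. These are Limd1, Wtip, Junb, Tpm1 and Ankrd1, the cell type markers named, and the end points of the plot of fold changes by gene list. Alternatives were other pseudocounts, filters, scalings and variance models, the replicate number as a block, and each library left out in turn.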

Additional observations from a re-analysis of the deposited data

How the results depend on the processing

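Of 141 values of the 9 tested genes under alternatives, 139 kept their direction and did not pass, and 2 of Lats2 reversed: leaving out 1 library at a time it ran from -0.63 to 0.063. In each of the 16 alternatives 0 of the members it tested were called (limma): 6 genes with a mean of at least 5 FPKM, 10 with no filter and 9 in the others, so that Ctgf was tested only with no filter. The same count of 0 held for the wider Hippo genes and other YAP targets tested. Over all entries 16 rose and 19 fell. With no filter 7 rose, with median-of-ratios scaling 8 rose and 15 fell, with robust moderation 8 rose, and with quantile normalization 4 rose and 12 fell; with a mean of at least 5 FPKM 8 fell. That filter also removed Lats2, Cyr61 and Ajuba. Without single libraries the rises ran from 2 to 15 and the falls from 6 to 23. Called SRF and MRTF targets ran from 0 to 1. The cause of these differences was not tested. Deviations of same-numbered libraries correlated across genes at 0.05, 0.02 and 0.13, and those of different-numbered libraries at between -0.17 and 0.12. With 3 such pairs, these values cannot tell whether the replicate numbers pair the libraries. With the replicate block 23 rose and 23 fell, 0 of them among the 9 genes tested, of which 3 were higher and 1 lower at an unadjusted p below 0.05, against 1 higher and 1 lower without it, and the adjusted p of Amotl2 was 0.189 and of Tead1 0.256 (limma with Benjamini-Hochberg adjustment). Depth limits Ctgf, whose control values rest on about 4.11 to 10.9 fragments.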
